A study of Homo sapiens with 6 samples.

Results

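The untreated state of the respiratory cell lines A549 and BEAS-2B was compared with 2 of the 6 transcriptome libraries of the series, namely the A549 control and the BEAS-2B control. The remaining 4 libraries came from the same lines after 48 h with 1 or 5 ng/mL TGF-β1, a cytokine that drives fibrosis and epithelial to mesenchymal transition (EMT), and they served here only as a second look at the line difference. All 25737 gene entries (24462 symbols) were compared. A549 is labelled as a lung carcinoma epithelial line and BEAS-2B as a bronchial epithelial line, both of genotype WT and, in the control libraries, with treatment given as none. Each condition was represented by 1 library, so no spread between cultures was known, no test was possible, and every interval below covers counting error only.

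Both lines were maintained in RPMI1640 with 10% fetal bovine serum, antibiotics and sodium pyruvate. The treated cultures received medium with 1% serum, while the medium of the controls during those hours was not given in the sources used here. As background, A549 is an established adenocarcinoma line known to carry mutated STK11 and KEAP1 and to lack CDKN2A. BEAS-2B is an established line made from non-cancerous bronchial epithelium with a hybrid of adenovirus and SV40, whose large T antigen binds the RB family. Counts per gene hold no information on mutations.

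Airway and alveolar epithelium are held together by E-cadherin junctions and keratin filaments, and their identity is set by lineage transcription factors of the NKX2, FOXA, SOX2 and TP63 kind. Mesenchymal cells instead build a collagen and fibronectin matrix. NRF2 is the transcription factor that switches on antioxidant, NADPH-producing and detoxifying enzymes, KEAP1 marks it for degradation, and lung carcinomas often escape this brake. E2F factors, which the RB family restrains, drive the genes of DNA replication.

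The control libraries held 4144476 counts (A549) and 4252712 counts (BEAS-2B), and the treated ones 4120624 to 7841350. Levels are given as raw counts and as normalized counts, which are counts scaled to a common library size. A gene was counted as different when its normalized count plus 1 differed at least 2-fold and log2 of that value reached 7 in at least 1 of the pair, which took 110 raw counts in A549 and 114 in BEAS-2B. In all, 7329 entries reached that minimum and 5023 reached it in both libraries. Of the 7329, 1324 (18.1%) were higher in A549 and 1386 (18.9%) were higher in BEAS-2B, together 37.0%. These shares are the background against which each list below is to be read, and the median log2 difference of the 7329 was -0.05. An entry that reached the minimum in 1 line only had to differ in level, so counts of list members describe these libraries and test nothing. In 1928 of the 2710 counted entries the whole 95% counting interval lay beyond 2-fold. Since only bulk RNA was measured, a lower level may be fewer expressing cells or less RNA per cell, which cannot be told apart.

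**Figure D1:**
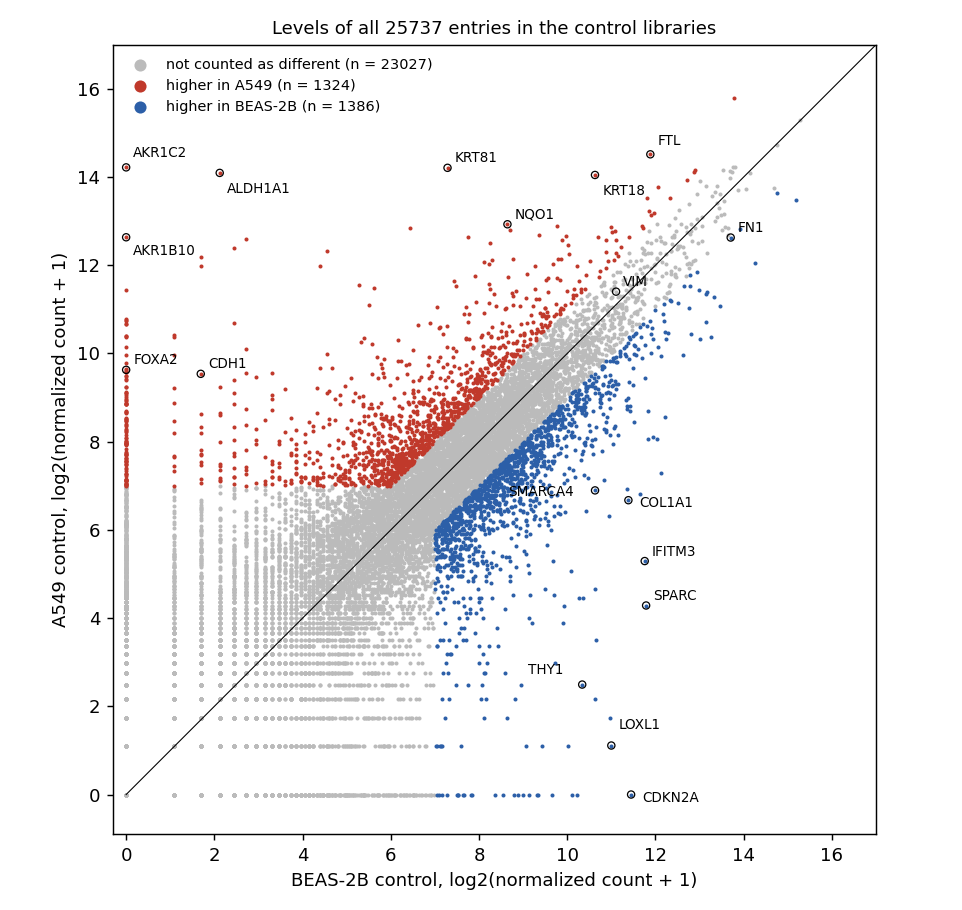
Levels of all entries in the BEAS-2B control (x) and the A549 control (y), as log2 of the normalized count plus 1, with 1 point per entry, red for the 1324 counted higher in A549, blue for the 1386 counted higher in BEAS-2B and grey for the rest. AKR1C2 and CDKN2A lie on the axes at 0 counts in BEAS-2B and A549, and VIM lies near the diagonal.

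Labels were first checked against CDKN2A, which encodes the cell cycle inhibitors p16 and ARF and is known to be deleted in A549. It had 0 counts in the A549 control and 2502 in the BEAS-2B control, at least 803-fold higher in BEAS-2B. Its neighbour CDKN2B had 0 and 205 counts, at least 65.8-fold higher in BEAS-2B. The 0 counts of CDKN2A matched the A549 name, while its counts in the other library do not by themselves identify BEAS-2B. MTAP, a methionine salvage enzyme encoded beside them, had 26 and 214 counts, 7.92-fold higher in BEAS-2B (95% counting interval 5.26 to 12.4). KLHL9, a ubiquitin ligase adaptor from the same band, had 254 and 330 counts and was counted in neither direction, and DMRTA1, a transcription factor gene, had 7 and 0. Low counts in A549 were thus seen at CDKN2A and CDKN2B and, in part, at MTAP, but not across the band.

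Promoter sequences are shown first for 2 gene sets that divided one way between the lines, the NRF2 targets (higher in A549) and the E2F and replication genes (higher in BEAS-2B). RefSeq promoter windows on GRCh38.p14, from 250 bases before to 50 bases after a gene's start, were found for 23 of the 32 NRF2 targets and for 20 of the 24 E2F list genes. The NRF2 element was searched as TGACNNNGC and the E2F element as TTTNGCGC, on both strands, and matches of the 2 patterns on opposite strands can share bases. The NRF2 element was present in 8 of the 23 matched NRF2 targets (34.8%), in 6 of the 20 E2F list genes and in 16.1% of all 27305 genes of the table, so it did not separate these lists. The windows below hold the element (in capitals) in NRF2 targets that carried it, read 5′ to 3′ on the strand given.
GPX2 (chr14:64942848-64942877, plus strand): catccccaggaTGACTTAGCaaaaacaggt
GCLM (chr1:93909445-93909474, plus strand): ctggaagacaaTGACTAAGCagaaatcgta
ME1 (chr6:83431169-83431198, minus strand): tctcctgccaTGACTCAGCgcttctcgcag
TXNRD1 (chr12:104286920-104286949, minus strand): cagagtcagaaTGACAAAGCagaaatccac
EPHX1 (chr1:225825266-225825295, plus strand): tgagattggcTGACTTGGCaggactgtgca
PGD (chr1:10398853-10398882, minus strand): gagcacctagaTGACATTGCcccggcgagg

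The E2F element was present in 11 of the 20 matched E2F list genes (55.0%), in 0 of the 23 NRF2 targets and in 2.17% of all genes of the table. Several windows held it on both strands at once, as a near palindrome. The windows below show the element (in capitals) in list genes that carried it, chosen so that genes with large and small differences are both present. Capitals mark a single match in each window, and the RBL1 window holds a further match on the same strand, left in small letters.
E2F1 (chr20:33686387-33686416, minus strand): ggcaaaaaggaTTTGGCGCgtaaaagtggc
UHRF1 (chr19:4909973-4910002, plus strand): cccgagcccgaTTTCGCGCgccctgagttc
RBL1 (chr20:37096005-37096034, minus strand): cagctgcagatTTTCGCGCgctttggcgca
MCM2 (chr3:127598402-127598431, plus strand): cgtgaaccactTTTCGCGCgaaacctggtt
CDC6 (chr17:40287875-40287904, plus strand): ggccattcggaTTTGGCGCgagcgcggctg
MCM6 (chr2:135876577-135876606, minus strand): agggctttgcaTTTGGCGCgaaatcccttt

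A match is a description of letters and neither a bound site nor a cause. Further patterns were searched in the windows of 16 matched liver-type and 21 matched mesenchymal genes. FOXA (TGTTTAC) was present in 1 of the 16 (6.25%) and 2 of the 21 (9.52%), against 4.19% of all genes. AP-1 (TGANTCA) was present in 2 of the 16 (12.5%) and 2 of the 21 (9.52%), against 9.37%, and TEAD (CATTCC) in 6 of the 16 (37.5%) and 4 of the 21, against 16.7%. TGANTCA and TGACNNNGC can share bases, as in the ME1 window above.

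The largest differences in favour of A549 were dominated by oxidoreductases. AKR1C2, an aldo-keto reductase of steroids and carbonyls, had 16442 counts in A549 and 0 in BEAS-2B, at least 5693-fold higher in A549. ALDH1A1, the retinaldehyde dehydrogenase, had 15076 and 3 counts, a ratio of 5220 (1786 to 25315). AKR1B10, another aldo-keto reductase, had 5482 and 0, at least 1898-fold. Of the 12 genes with the most securely large excess in A549, 6 were such carbonyl enzymes, since ALDH3A1 (4022 and 2), AKR1C1 (4658 and 4) and AKR1C3 (5302 and 5) joined them. UGT1A3, a glucuronosyltransferase, had 1514 and 0 counts. The AKR1C genes are near-identical in sequence and the UGT1A genes share their 3′ exons, so which member the reads came from is uncertain.

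Further genes of these 12 came from unrelated functions. CPLX2, a regulator of vesicle fusion, had 2397 and 0 counts, and PDK4, the kinase that inactivates pyruvate dehydrogenase, had 3509 and 2. CLDN2, a pore-forming tight junction claudin, had 1483 and 0 counts, and NTS, the precursor of neurotensin, 1407 and 0. All 12 were also higher in A549 in both treated pairs.

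The 12 genes with the most securely large excess in BEAS-2B were led by CDKN2A. LOXL1, a lysyl oxidase that crosslinks elastin, had 1 count in A549 and 1833 in BEAS-2B, a ratio of 1765 (316 to 69737). COL8A1, a short-chain collagen, had 1 and 930 counts, and TINAGL1, a matricellular protein, 0 and 501. MT1E, a metallothionein with close copies in the genome, had 2 and 1782. CLDN11, a claudin of myelin and testis, had 3 and 1409 counts. BEX1 (0 and 1065), GYPC (glycophorin C, 0 and 990), SV2A (a synaptic vesicle protein, 0 and 725), PDLIM4 (an actin-associated adaptor, 0 and 578) and SLC43A3 (a nucleobase transporter, 0 and 568) also belonged to this set. Of the genes counted higher in A549, 106 had 0 counts in the other line, against 23 of those higher in BEAS-2B.

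Lineage transcription factors were mostly on the A549 side. Of 23 such genes, 11 reached the minimum, 9 were counted higher in A549 and 1 in BEAS-2B. FOXA2, a pioneer factor of endoderm, had 682 counts in A549 and 0 in BEAS-2B, at least 236-fold higher in A549. HNF4A, the factor of liver and gut epithelium, had 268 and 0 (at least 92.8-fold), and SOX2, a factor of airway progenitors, 217 and 0 (at least 75.1-fold). These 3 endodermal or progenitor factors were therefore detected in A549 with no counts in BEAS-2B. On the other side stood IRX2, an Iroquois factor, with 19 and 508 counts, 25.7-fold higher in BEAS-2B (16.3 to 43.1). NKX2-1, the master factor of lung epithelium, had 1 and 8 counts, and TP63, the factor of basal cells, 8 and 0 (these 2 were named after their values were seen).

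Of the markers of mature alveolar cells, some had no counts and others were well detected. The surfactant genes SFTPA1, SFTPA2, SFTPB and SFTPC and the phosphate transporter SLC34A2 had 0 counts in both control libraries, which allows up to 0.724 CPM (A549) and 0.705 CPM (BEAS-2B) each. Of 14 alveolar type 2 markers, ETV5 (273 and 129 counts) and LPCAT1 (198 and 78) were counted higher in A549, and 6 had no count in either line. The lipid transporter ABCA3, with 72 and 23 counts, stayed under the minimum. The 6 type 2 markers with more than 3 counts in a line were split. Of these, 3 were higher in A549 and 3 in BEAS-2B, with a median log2 difference of 0.39. Among alveolar type 1 markers, PDPN (podoplanin) had 0 and 126 counts, at least 40.4-fold higher in BEAS-2B, CAV1 (caveolin) had 770 and 1995, and EMP2, a membrane protein, had 488 and 297 (1.71-fold higher in A549, counted in neither direction), while AQP5 and HOPX had none in either line.

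Airway cell markers gave no complete programme in either line. Of 17 basal markers, KRT17 (2 and 247 counts, 119-fold, 32.6 to 987), S100A2 (18 and 133) and SFN (573 and 1952) were counted higher in BEAS-2B, but the defining basal keratins KRT5 and KRT14 had 0 counts in both libraries. Of 10 ciliated markers, only CAPS (97 and 256) reached the minimum, and it was counted higher in BEAS-2B. The 5 with more than 3 counts in a line were split, 3 higher in A549 and 2 in BEAS-2B (median log2 difference 1.92). The ciliary master factor FOXJ1 had 3 and 0. The club cell secretoglobins SCGB1A1, SCGB3A1 and SCGB3A2 had 0 counts in both. UCHL1, a deubiquitinase used as a neuroendocrine marker, had 2905 and 776 counts, 3.89-fold higher in A549 (3.59 to 4.21), while INSM1 and CALCA had 0 counts in both lines. Of the 8 neuroendocrine markers, 4 had more than 3 counts in a line, and all 4 were higher in A549 (median log2 difference 3.06). Only UCHL1 reached the minimum. Immune markers summed to 59 and 24 counts, of which CD14 gave 57 and 24, and endothelial markers to 0 and 2.

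**Figure D2:**
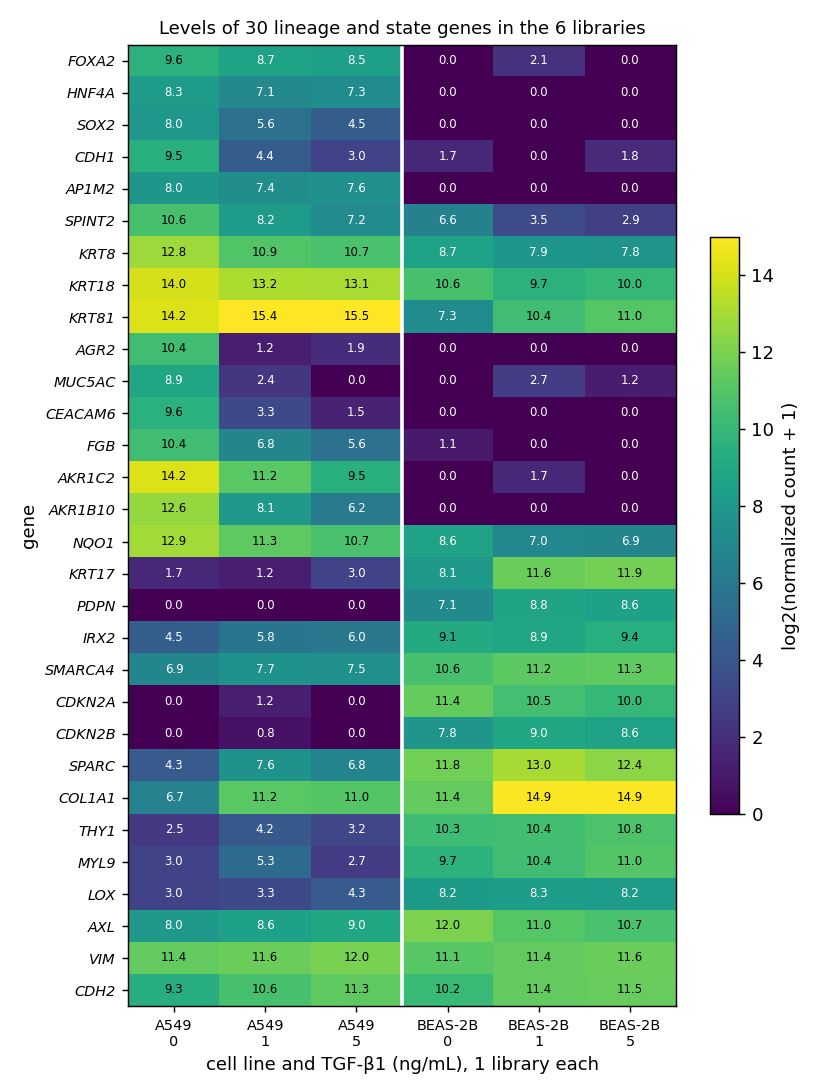
Levels of 30 genes (rows) in the 6 libraries (columns, cell line and TGF-β1 in ng/mL), as log2 of the normalized count plus 1, printed in each cell. FOXA2, HNF4A and AP1M2 are above 7 in all 3 A549 libraries and at most 2.13 in BEAS-2B, CDKN2A is at most 1.24 in A549, and VIM is between 11.11 and 11.96 in all 6.

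HOX genes, which set position along the body axis, were detected more broadly in A549. Of 39 HOX genes, 8 reached the minimum, and 6 were counted higher in A549. HOXA3 had 212 counts in A549 and 0 in BEAS-2B (at least 73.4-fold), HOXC8 149 and 3 (51.6-fold, 17.3 to 253), HOXC9 213 and 9, and HOXB5 224 and 24. HOXB4 ran the other way with 21 and 223 counts, 10.2-fold higher in BEAS-2B (6.53 to 16.8), as did HOXB3 with 58 and 132. The B cluster was thus divided between the lines, and 28 of the 39 genes had 0 counts in BEAS-2B against 6 in A549. All 8 kept their direction in both treated pairs.

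Epithelial junction genes were higher in A549 where they differed. Of 28, 8 reached the minimum, 5 were counted higher in A549 and 0 in BEAS-2B. CDH1, which encodes E-cadherin, had 640 counts in A549 and 2 in BEAS-2B, a ratio of 332 (91.6 to 2751). AP1M2, an epithelial clathrin adaptor, had 215 and 0 (at least 74.4-fold), SPINT2, a protease inhibitor of epithelial surfaces, 1383 and 87 (16.5-fold, 13.3 to 20.8), and JUP, plakoglobin, 835 and 151 (5.74-fold, 4.82 to 6.88). E-cadherin RNA was therefore close to the counting floor in the untreated bronchial line. DSP, desmoplakin, had 1377 and 919 counts and was counted in neither direction, and the splicing factor ESRP1 and the epithelial factor GRHL2 had 0 counts in both (these 3 were named after their values were seen).

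Keratins of simple epithelium followed the same direction. KRT8 had 6112 counts in A549 and 372 in BEAS-2B, 17.1-fold higher in A549 (a log2 difference of 4.09), and its partner KRT18 had 14592 and 1418 (10.7-fold, 10.1 to 11.3). KRT7, of ductal and airway epithelium, had 3473 and 1063 (3.39-fold, 3.17 to 3.64), and the hair keratin KRT81 had 16328 and 139 (122-fold, 103 to 145). The 15 filament genes took 1.05% of all counts in A549 and 0.136% in BEAS-2B. VIM, the mesenchymal filament vimentin, was counted in neither direction, with 2332 and 1975 counts (1.23-fold, 1.15 to 1.30), and was named after its values were seen. KRT81 has the close copy KRT86 beside it (21 and 4 counts), so their reads may be divided imperfectly. Against its label of bronchial epithelial cells, the BEAS-2B library thus held simple keratins and KRT17, while CDH1, KRT5, SCGB1A1, FOXJ1 and EPCAM (49 counts in A549 and 0 in BEAS-2B, named after its values were seen) were at or near 0 in it.

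Secretory genes were present in A549 without a club cell signature. Of 21 secretory and mucous markers, 8 reached the minimum, 7 were counted higher in A549 and 1 in BEAS-2B. The gel-forming mucins MUC5AC and MUC5B had 399 and 218 counts in A549 and 0 each in BEAS-2B, at least 138-fold and 75.5-fold higher in A549. AGR2, the disulfide isomerase that folds mucins, had 1154 and 0 (at least 400-fold), CEACAM6, an adhesion protein, 662 and 0 (at least 229-fold), GCNT3, which branches mucin glycans, 619 and 0 (at least 214-fold), SLPI 185 and 4, and LCN2, lipocalin, 263 and 12. SPDEF, the factor of goblet cells, had 57 and 0 counts and stayed under the minimum, as did the membrane mucin MUC1, which ran the other way with 18 and 108 counts (5.78-fold higher in BEAS-2B, 3.49 to 10.1). CREB3L1, a membrane-bound factor of secretory load, had 8 and 268 counts, 32.3-fold higher in BEAS-2B (16.1 to 75.5).

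The secretory group did not keep its A549 excess in the treated pairs. The 21 genes took 0.0886% of counts in the A549 control but 0.00496% and 0.00284% in A549 at 1 and 5 ng/mL, against 0.00934%, 0.00776% and 0.00699% in BEAS-2B. Of the 7 genes counted higher in A549 control, 1 was counted the same way at 1 ng/mL and 0 at 5 ng/mL. The treated cultures differ from the control by TGF-β1 and possibly by serum, and their parts were not tested.

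Genes of liver-type secretion were also higher in A549. Of 25 genes, 9 were counted higher in A549 and 1 in BEAS-2B. The 3 chains of fibrinogen, the clotting protein, were detected almost only in A549, with 1147 and 1 counts for FGB (ratio 1191, 213 to 47100), 443 and 0 for FGA (at least 153-fold) and 303 and 0 for FGG (at least 105-fold). FGL1, a fibrinogen-like hepatokine, had 256 and 0. CFB, complement factor B, had 200 and 627 counts, 3.02-fold higher in BEAS-2B (2.57 to 3.56). All 9 were higher in A549 in both treated pairs too, though 3 and 1 of them still passed the fold and level criteria.

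Mesenchymal genes were mostly on the BEAS-2B side before any TGF-β1 was added. Of 32, 25 reached the minimum, 17 were counted higher in BEAS-2B and 3 in A549, and the median log2 difference of the 30 above the counting floor was -2.48, against 0.09 for all entries above that floor. SPARC, a collagen-binding matricellular protein, had 16 counts in A549 and 3168 in BEAS-2B, 191-fold higher in BEAS-2B (117 to 334). THY1, a fibroblast surface protein, had 4 and 1160 (279-fold, 109 to 1026), MYL9, the smooth muscle myosin light chain, 6 and 758 (122-fold, 55.6 to 332), and FSTL1, a secreted follistatin-like protein, 134 and 4024 (28.9-fold, 24.3 to 34.6). The mesenchymal list thus took 0.993% of counts in BEAS-2B and 0.440% in A549.

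The list did not move as a block. S100A4, a calcium-binding protein used as a fibroblast marker, had 3493 counts in A549 and 18 in BEAS-2B, 202-fold higher in A549 (127 to 341). CD44, the hyaluronan receptor, had 2339 and 913 (2.66-fold, 2.46 to 2.88), and ACTA2, smooth muscle actin, 139 and 63 (2.29-fold, 1.69 to 3.14). CDH2, N-cadherin, had 561 and 1046 counts and was counted in neither direction (1.79-fold higher in BEAS-2B, 1.62 to 1.99), and was named after its values were seen. The cadherin difference between the lines was therefore one of E-cadherin far more than of N-cadherin.

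Genes that define fibroblasts were split in BEAS-2B. THY1, COL1A1 and PDGFRB (0 and 118 counts, at least 37.9-fold higher in BEAS-2B) were counted, whereas LUM had 0 counts in both lines, DCN 2 and 4, COL6A3 0 and 2 and PDGFRA 8 and 0. The 10 fibroblast markers summed to 122 counts in A549 and 3720 in BEAS-2B. Whether another cell type contributed was not tested.

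EMT transcription factors differed little. Of 12, 5 reached the minimum and 1, ZEB2, was counted, with 30 and 157 counts, 5.04-fold higher in BEAS-2B (3.39 to 7.72). Its relative ZEB1 had 135 and 134 counts, a ratio of 1.05 in normalized counts (0.818 to 1.34). SNAI1, SNAI2, TWIST1 and TWIST2 had at most 40 counts in either control. ZEB1 and the SNAI and TWIST genes were named after their values were seen.

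The 8 core genes that the study selected for fibrosis were all lower in A549 than in BEAS-2B at baseline, and 6 were counted. COL1A1, the main fibrillar collagen, had 87 counts in A549 and 2398 in BEAS-2B (26.5-fold, 21.4 to 33.3). MMP2, a gelatinase, had 9 and 177 (18.9-fold, 9.75 to 42.1), and THBS1, thrombospondin, 54 and 714 (12.7-fold, 9.65 to 17.1). COL5A1 had 216 and 1201 counts (5.35-fold), ITGA5, the fibronectin receptor subunit, 70 and 322 (4.43-fold), and FN1, fibronectin, 5458 and 11970 (2.11-fold, 2.04 to 2.18). The basement membrane chains COL4A1 (203 and 345, 1.64-fold) and COL4A2 (536 and 1075, 1.93-fold) were counted in neither direction. These genes were chosen by the study on these samples, so the list is no independent evidence of a direction. Their summed share was 0.160% of counts in A549 and 0.428% in BEAS-2B at baseline, and 0.631% and 5.10% at 5 ng/mL.

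**Figure D3:**
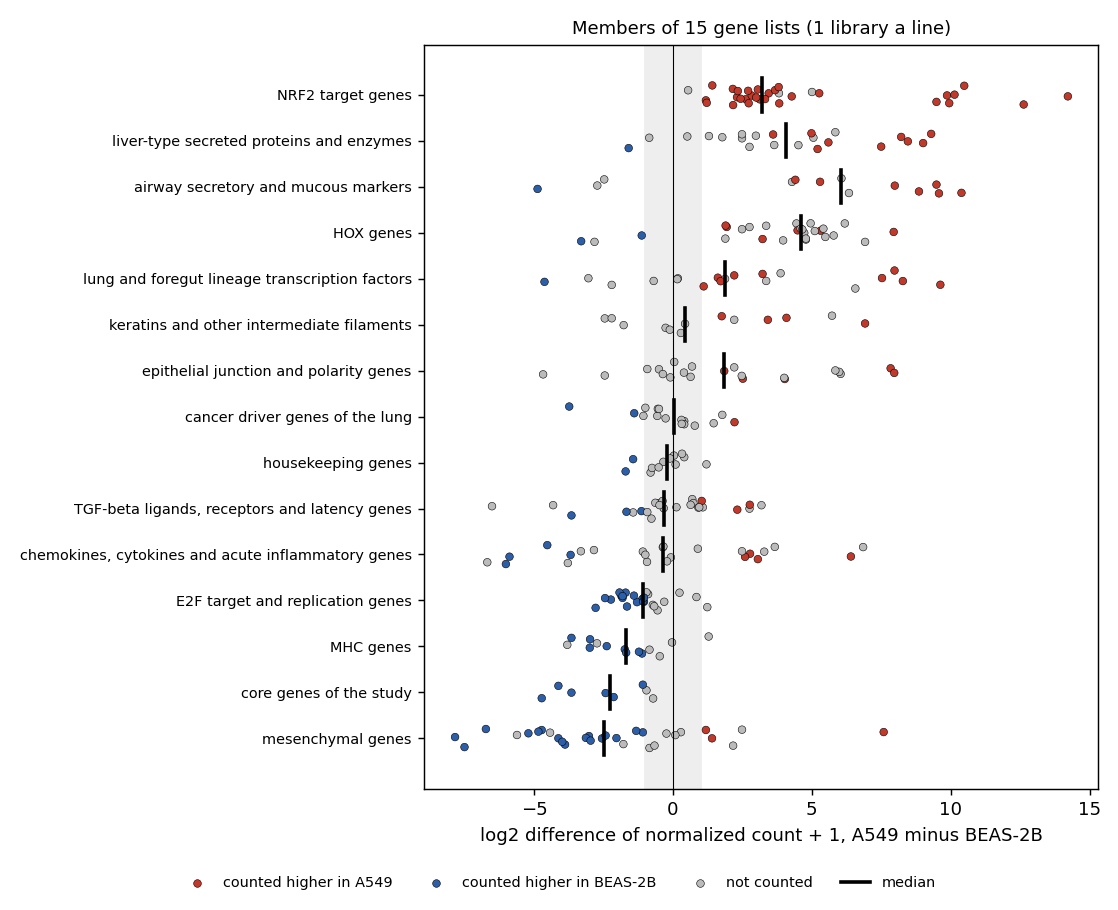
Log2 difference (A549 minus BEAS-2B, normalized count plus 1) of the members of 15 lists above the counting floor in the control pair, with 1 point per gene, red or blue where counted, grey otherwise, a black bar for the median and a grey band for differences under 2-fold. NRF2 targets lie to the right of 0 throughout with a median of 3.22, and the mesenchymal list has its median at -2.48 with S100A4 far to the right.

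NRF2 targets lay on 1 side of the comparison. All 32 genes were above the counting floor and higher in A549, 30 reached the minimum, 29 were counted higher in A549 and 0 in BEAS-2B, against the background of 18.1%. Together they took 2.73% of all counts in A549 and 0.408% in BEAS-2B. The list was chosen with earlier results of these data known, so these numbers are no independent evidence of a direction. The largest differences belonged to the aldo-keto reductases and ALDH3A1 described above. The transporter of bile and drug conjugates ABCC2 had 619 and 0 counts, and GPX2, a glutathione peroxidase, 973 and 0 (at least 337-fold).

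The enzymes of each NRF2 branch were all on the same side. For glutathione, the cystine transporter SLC7A11 had 700 counts in A549 and 18 in BEAS-2B (40.4-fold, 25.4 to 68.6), the ligase subunits GCLC 295 and 42 (7.30-fold) and GCLM 611 and 141 (4.50-fold), and the reductase GSR 959 and 151 (5.55 to 7.88-fold). For NADPH, PGD had 2977 and 216 counts (14.3-fold, 12.5 to 16.5) and ME1 303 and 37 (8.51-fold). For thioredoxin, TXN had 2243 and 290 (8.03-fold) and TXNRD1 1886 and 393 (4.98-fold). NQO1, the quinone reductase, had 6724 and 358 (19.5-fold, 17.5 to 21.8), EPHX1, the microsomal epoxide hydrolase, 387 and 36 (11.2-fold), and the ferritin chain FTL 20185 and 3385 (6.19-fold, 5.97 to 6.43). TALDO1, a pentose phosphate enzyme, was the only member at the minimum that was not counted (1487 and 1052, 1.47-fold). Members of this list beyond the 4 largest were named after their values were seen.

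The regulators themselves did not differ in this way. NFE2L2, which encodes NRF2, had 407 and 339 counts (a log2 difference of 0.32), and KEAP1 had 200 and 302 (1.45-fold higher in BEAS-2B, 1.21 to 1.75). Neither was counted. In the treated pairs all 29 genes stayed higher in A549 at 1 ng/mL and 28 at 5 ng/mL, where GPX2 was at or under the floor in both lines. Of the 29, 23 and 20 still passed the fold and level criteria. The median difference of the list was 3.22 in the control pair, 2.33 at 1 ng/mL and 2.04 at 5 ng/mL on the log2 scale, and its share of A549 counts was 1.01% and 0.922% in the treated cultures.

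**Figure D4:**
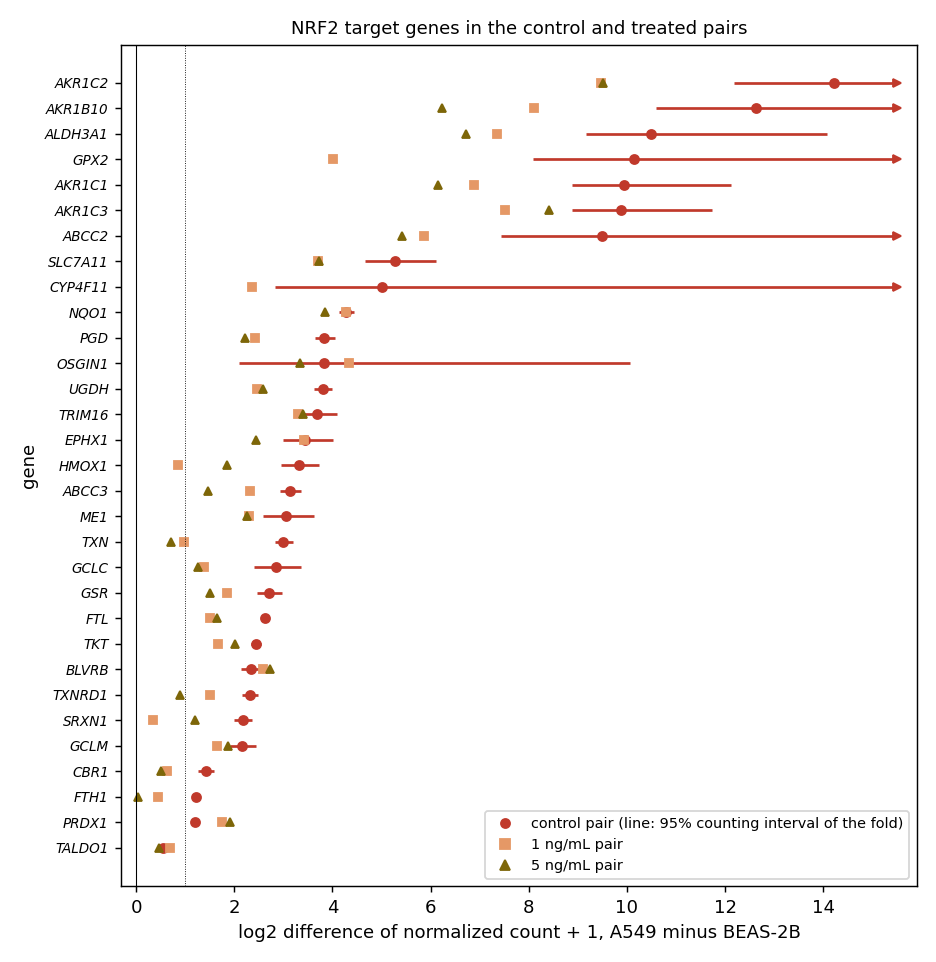
Log2 difference (A549 minus BEAS-2B, normalized count plus 1) of 31 of the 32 NRF2 targets in the control pair (circles, with the 95% counting interval of the fold as a line and an arrow where BEAS-2B had 0 counts), at 1 ng/mL (squares) and at 5 ng/mL (triangles), with the dotted line at 2-fold. All circles lie right of 0, from TALDO1 at 0.55 to AKR1C2 at 14.22. Where BEAS-2B had 0 counts, as for AKR1C2, the place of the circle depends on the added 1.

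Other enzymes of xenobiotic and retinoid metabolism were divided. Of 22, 10 reached the minimum, 5 were counted higher in A549 and 3 in BEAS-2B. Beside ALDH1A1, CYP24A1, which breaks down active vitamin D, had 1161 counts in A549 and 0 in BEAS-2B (at least 402-fold), and ALDH2, the mitochondrial acetaldehyde enzyme, 829 and 45 (19.1-fold, 14.2 to 26.4). CYP1B1, an AHR-regulated P450, ran the other way with 274 and 1917 (6.74-fold higher in BEAS-2B, 5.93 to 7.67), as did the glutathione transferase GSTM3 with 34 and 208 (5.89-fold) and ALDH1A3 with 36 and 196 (5.24-fold).

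Of 16 driver genes of lung cancer, 13 reached the minimum, 1 was counted higher in A549 and 2 in BEAS-2B. SMARCA4, the ATPase of the SWI/SNF remodeller, had 102 counts in A549 and 1419 in BEAS-2B, 13.4-fold higher in BEAS-2B (10.9 to 16.5). STK11, the kinase LKB1, had 79 and 217 (2.64-fold, 2.03 to 3.47), and ERBB3, a receptor of neuregulins, 173 and 38 (4.73-fold higher in A549, 3.31 to 6.91). EGFR had 439 and 645 counts (1.41-fold) and MET 804 and 482 (1.73-fold), and both were counted in neither direction. RNA levels of 10 of the 13 thus lay within 2-fold. Of the 3 counted genes, SMARCA4 alone was also counted in both treated pairs, with log2 differences of -3.52 and -3.80.

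Genes of DNA replication and E2F control were mostly lower in A549 than in BEAS-2B. Of 24, 22 reached the minimum, 15 were counted higher in BEAS-2B and 0 in A549, against the background of 18.9%, and their median log2 difference was -1.09. This list too was chosen with earlier results of these data known. E2F1 itself had 99 counts in A549 and 710 in BEAS-2B, 6.90-fold higher in BEAS-2B (5.59 to 8.61). RRM2, the ribonucleotide reductase subunit, had 299 and 1685 (5.43-fold, 4.79 to 6.16), and UHRF1, which maintains DNA methylation, 54 and 266 (4.74-fold, 3.53 to 6.48). Of the replicative helicase subunits with windows above, MCM2 had 289 and 946 counts (3.15-fold), and MCM6 had 166 and 335 (1.94-fold) and missed the fold. RBL1, the RB family member p107, had 115 and 421 (3.52-fold), and CDC6, the helicase loader, 158 and 353 (2.15-fold).

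Some genes of proliferation were counted in neither direction. MKI67 had 1209 and 2327 counts (1.85-fold higher in BEAS-2B, 1.73 to 1.99), TOP2A 6118 and 10443 (1.64-fold), and PCNA 796 and 700 (1.18-fold higher in A549). CCNE1, the cyclin of the G1/S step, had 83 and 36 and stayed under the minimum. These 4 were named after their values were seen, as were RBL1, MCM2, MCM6 and CDC6. The difference of the whole list was smaller in the treated pairs, with medians of -0.45 and -0.55, and 7 and 3 of the 15 genes were still counted. How far culture density or growth rate differed between the control cultures was not measured.

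Oncofetal and cancer-testis genes were found on both sides. Of 25 found, 7 reached the minimum, 3 were counted higher in A549 and 2 in BEAS-2B. XAGE1A of this list was not found under that symbol, and XAGE1B, a near-identical copy named after its values were seen, had 654 and 0 counts (at least 226-fold higher in A549). PRAME, a cancer-testis antigen, had 859 counts in A549 and 1 in BEAS-2B (ratio 892, 160 to 35284), and IGF2BP1, an oncofetal RNA-binding protein, 530 and 27 (20.4-fold, 13.9 to 31.2). HMGA2, a chromatin protein of embryonic growth, had 171 and 61 (2.91-fold). The paralogue IGF2BP2 had 206 and 680 (3.18-fold higher in BEAS-2B) and the imprinted RNA H19 42 and 196 (4.49-fold higher in BEAS-2B). IGF2BP1 and IGF2BP2 therefore lay on opposite sides. PRAME, IGF2BP1, IGF2BP2 and H19 kept their side in both treated pairs, and so did HMGA2, at 0.88 and 0.40 on the log2 scale.

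Chemokines and acute phase genes were divided between the lines. Of 26, 13 reached the minimum, with 4 counted on each side and 5 in neither direction. The background shares of all genes at the minimum were 18.1% and 18.9%. CXCL5, a neutrophil chemokine, had 6358 counts in A549 and 77 in BEAS-2B (85.8-fold, 68.5 to 109), CXCL3 215 and 26 (8.59-fold), IL18, an inflammasome cytokine, 322 and 48 (6.97-fold) and CXCL2 221 and 37 (6.20-fold). In BEAS-2B, the serum amyloid genes SAA1 (12 and 859, 68.9-fold, 39.2 to 134) and SAA2 (9 and 130), which are close copies of each other, the adhesion receptor ICAM1 (3 and 235, ratio 75.4, 25.5 to 368) and the pentraxin PTX3 (5 and 139, 26.8-fold) were higher. CXCL8, the gene of interleukin 8, had 163 and 324 counts (1.91-fold) and was counted in neither direction, and was named after its values were seen. In the treated pairs, 1 of the 4 genes on each side was still counted the same way at each dose.

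Antigen presentation genes were higher in BEAS-2B. Of 14 MHC entries above the counting floor, 10 reached the minimum, 8 were counted higher in BEAS-2B and 0 in A549. HLA-B had 326 counts in A549 and 4273 in BEAS-2B (12.6-fold, 11.3 to 14.2) and HLA-C 191 and 1582 (7.97-fold, 6.86 to 9.31). PSMB9, an immunoproteasome subunit, had 51 and 424 (5.98 to 10.9-fold). Class II genes HLA-DRA and HLA-DRB1 had 0 counts in both. Class I genes are near copies of one another and vary between genomes, so counts depend on how each line's alleles match the reference.

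Interferon-stimulated genes were split, with 3 of the 9 at the minimum counted on each side. IFITM3, an antiviral membrane protein, had 33 counts in A549 and 3099 in BEAS-2B (90.4-fold, 64.2 to 132), BST2, tetherin, 3 and 142 (ratio 45.6, 15.3 to 224) and IFITM1 29 and 317 (10.5-fold). OAS1, a sensor of double-stranded RNA, had 194 and 2 (ratio 101, 27.5 to 838), and OAS3 407 and 192 (2.20-fold), both higher in A549. No common direction was seen, and the summed level of the 23 genes was 0.0893% of counts in A549 and 0.165% in BEAS-2B.

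Genes of the TGF-β machinery were found on both sides before treatment. Of 26 genes, 16 reached the minimum, 3 were counted higher in A549, 3 in BEAS-2B and 10 in neither direction, shares near the background of 18.1% and 18.9% of all genes at the minimum. LTBP1, which tethers latent TGF-β to the matrix, had 208 counts in A549 and 31 in BEAS-2B (6.97-fold, 4.76 to 10.5), the inhibitory SMAD6 186 and 38 (5.08-fold, 3.57 to 7.41), and the activating integrin chain ITGAV 185 and 93 (2.07-fold, 1.60 to 2.68). THBS1, LTBP4 (54 and 181, 3.23-fold) and the ligand TGFB2 (715 and 1626, 2.19-fold) were higher in BEAS-2B. The receptors TGFBR1 (153 and 222) and TGFBR2 (341 and 227, 1.56-fold) and the effectors SMAD2 (500 and 474) and SMAD3 (885 and 1189, 1.29-fold) lay within 2-fold, and these 4 were named after their values were seen. Housekeeping genes gave a median of -0.22, with 2 of 11 at the minimum counted (TUBB 9888 and 33380, GUSB 272 and 762), ACTB at 5939 and 6006 and GAPDH at 16480 and 12854.

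The line difference was then read in the treated pairs, which share no library with the control pair. At 1 ng/mL, 15.3% of 6965 entries were higher in A549 and 12.9% in BEAS-2B, and at 5 ng/mL 14.8% and 12.1% of 6837. Over the 8159 entries at the minimum in any of the 6 libraries, the median absolute log2 difference between the lines was 0.73 in the control pair, 0.61 at 1 ng/mL and 0.57 at 5 ng/mL, and Pearson's correlation of log2 levels across these entries was 0.514, 0.647 and 0.669. The lines thus stood farther apart in the control pair than in either treated pair. The A549 libraries were deeper after treatment (7841350 and 6101351 counts), and the part of depth was not tested. Genes are not independent replicates, and each correlation rests on 2 libraries.

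Of the 1324 genes higher in A549 control, 84.6% kept that direction at both doses, and of the 1386 higher in BEAS-2B control, 88.2% did. These genes were chosen on the control pair, so smaller values in the other pairs are to be read with that choice in mind. Groups differed in how far they kept their side. The 4 keratins, the 6 HOX genes on the A549 side and 16 of the 17 mesenchymal genes on the BEAS-2B side kept their direction at both doses. Of the 7 mucous genes higher in A549 control, 4 were above the counting floor and higher in A549 at 1 ng/mL, and 2 at 5 ng/mL. Pairs at or under that floor in both lines were given no direction here. AGR2 was such a case, with 2 counts in A549 and 0 in BEAS-2B at 1 ng/mL, and 3 and 0 at 5 ng/mL. The 84.6% and 88.2% above took such pairs by their sign, so the measures are unlike. CDH1 fell from a log2 difference of 7.84 in the control pair to 4.43 and 1.23 in the treated pairs. Its log2 level was 9.54, 4.43 and 3.05 in A549 at 0, 1 and 5 ng/mL, and 1.69, 0.00 and 1.82 in BEAS-2B. BEAS-2B was thus near the counting floor at every dose, and the difference at 5 ng/mL rests on few counts.

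**Figure D5:**
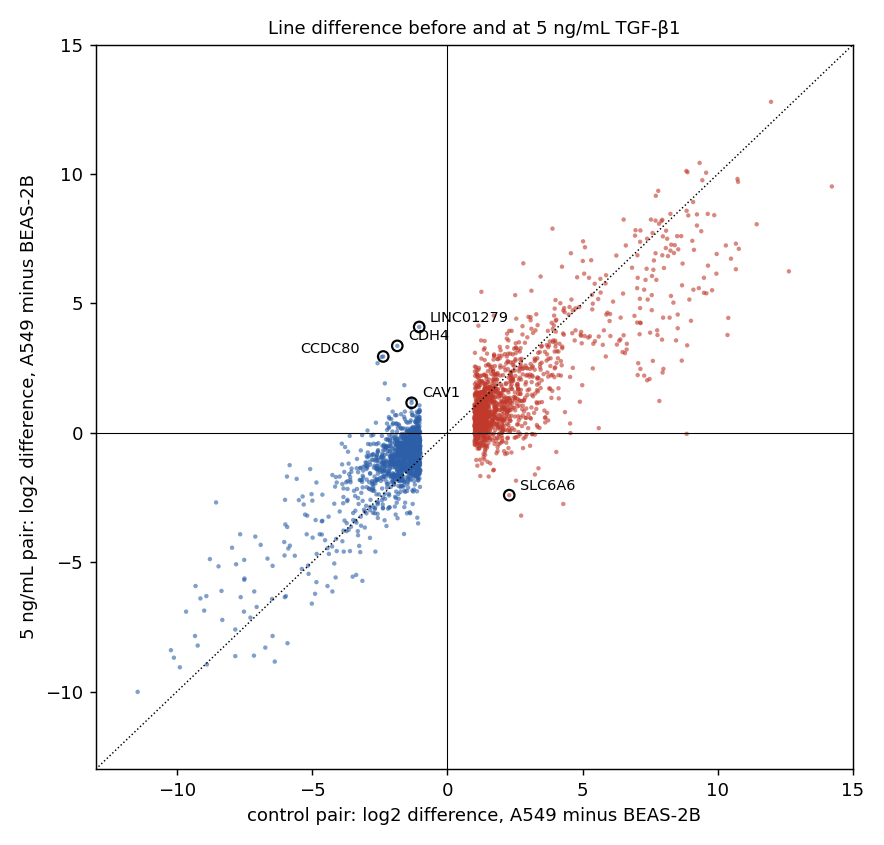
Log2 difference between the lines (A549 minus BEAS-2B, normalized count plus 1) in the control pair (x) and at 5 ng/mL (y) for 2693 genes counted in the control pair, red where higher in A549 and blue where higher in BEAS-2B, with equal differences on the dotted line. The 5 circled genes were counted one way in the control pair and the other way in both treated pairs.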

How the data were processed

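Total RNA of A549 and BEAS-2B cells was sequenced as 3′ mRNA libraries (Lexogen QuantSeq), 1 library for each of 6 conditions, and samples were grouped from their labels. The authors deposited raw counts per gene symbol. The submitters' processing notes name Bowtie2, bedtools and hg19, and versions, strand and multimapping settings were not given in the sources used here. Reads lie at transcript 3′ ends, so counts were compared between lines and never between genes.

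Counts were scaled by TMM over the 6 libraries (edgeR 4.0.16, R 4.3.3) to a mean effective size of 5131352, and log2(normalized count + 1) was taken. The fold of at least 2 and the level of at least 7 follow the study's own criteria. Folds are ratios of normalized counts with exact (Clopper-Pearson) 95% intervals from the raw counts, computed in Python 3.11.15 with scipy 1.17.1. PCR copies were not removed with molecular identifiers, so intervals and floors cover counting error only. Against 0 counts, the fold is a bound set by 3 counts in that library, without the error of the other count. Entries that share a symbol (286 symbols) were kept apart. DESeq2 1.42.0 supplied alternative size factors. The steps were tested on simulated counts. Other scalings, filters, pseudocounts, folds, minimum levels, thinning to one total and summed entries were tried as alternatives.

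Named genes were the 12 largest differences in each direction by the interval end nearest to no difference, up to 4 members of each list in each direction, all lung cancer driver, 9p21, core and cell type marker genes, and genes that changed side at both doses. Genes named outside this rule are marked, and some genes, a list and a motif are not reported here. Members and lists were chosen with earlier results of these data known, and motifs after the promoter windows were read. Promoters came from RefSeq tables on GRCh38.p14, a build other than that of the counts, and no gene coordinates were taken for the counted intervals.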

Additional observations from a re-analysis of the deposited data

Results flagged for a closer look

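Altogether 5 genes were counted one way in the control pair and the other way in both treated pairs. In each case the change of side was not tested, since each value rests on 1 library a line, and no explanation was weighed. CCDC80, a secreted matrix-binding protein, had 1867 counts in A549 and 10054 in BEAS-2B (log2 difference -2.37), and was higher in A549 by 2.79 at 1 ng/mL and 2.95 at 5 ng/mL. LINC01279, a noncoding RNA, had 60 and 129 counts (-1.04), with 4.95 and 4.09 in the treated pairs, and its reads were not told apart from those of any gene it may overlap. CDH4, R-cadherin, had 88 and 332 counts (-1.85), with 3.06 and 3.36. CAV1, the coat protein of caveolae, had 770 and 1995 counts (-1.32), with 1.65 and 1.16. SLC6A6, the taurine transporter, ran from A549 to BEAS-2B, with 140 and 29 counts (2.29) and treated differences of -1.77 and -2.41.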

How the results depend on the processing

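In all, 16 other settings were run. With other scalings (DESeq2 size factors, total counts, upper quartile factors, TMM over the 2 controls), a filter of 10 counts, pseudocounts of 0.1 and 5, a minimum of 6, thinning or summed entries, both counts stayed within 1.5 times of 1324 (A549) and 1386 (BEAS-2B), and no scaling moved the median by more than 0.05 on the log2 scale. Criteria of level and fold moved them by construction. Requiring the minimum in both libraries left 479 and 656 genes, a minimum of 8 left 818 in A549, no minimum gave 5355 and 3509, log2 CPM of at least 7 gave 360 and 412, a fold of 1.5 gave 2068 and 2264, and a fold of 4 gave 566 and 411. The share of counted genes on the A549 side was 48.9%, and 60.4% with no minimum. The 195 gene values followed under 8 alternatives were all of genes already counted as different, and none reversed. Scaling shifts of at most 0.05 or another pseudocount could not reverse a 2-fold difference, so this is no support for the directions. Of 1560 values, 40 left their counting interval, 36 of them with another pseudocount. Of 580 list counts, 466 stayed within 1.5 times. No paired analysis was possible because each group held 1 library and no replicate number joined more than 1 pair, and a fit of cell line and dose over all 6 libraries was not run. Leaving out a replicate was not possible either. Depth limits statements on genes at 0 counts to 0.724 CPM in A549 and 0.705 CPM in BEAS-2B.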

Other observations

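Some genes outside the lists stood far apart between the control lines and were named after their values were seen. KYNU, an enzyme of tryptophan breakdown, had 1405 counts in A549 and 0 in BEAS-2B, PTGS2, the inducible prostaglandin synthase, 857 and 0, SPP1, osteopontin, 518 and 0, and RSPO3, an enhancer of WNT signalling, 1178 and 1. In BEAS-2B, CADM3, a nectin-like adhesion protein, had 423 counts against 0 in A549, MCAM, the adhesion molecule CD146, 401 against 3, and TXNIP, an inhibitor of thioredoxin, 1179 against 18. All 7 kept their side in both treated pairs. TXNIP was thus on the side opposite to TXN, which had 2243 counts in A549 and 290 in BEAS-2B.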
